A study of Mus musculus with 11 samples.

Results

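Sorted mouse thymocytes labelled as deleted for Tcf7 were compared with Tcf7 +/+ thymocytes across 12022 autosomal genes at postnatal day 7 (P7). These genes were all those on autosomes among the 12366 genes of the authors' normalised table for this experiment. The other genes were 327 on X, 5 on Y, 9 mitochondrial and 3 without a chromosome in GENCODE M21, and served only as checks. Over the whole series, 12745 genes were listed in the normalised tables. The cells were thymocytes negative for CD24, a surface protein of immature thymocytes, and for TCRβ, sorted by flow cytometry. Controls carried Tcf7 +/+ (2 libraries), and the other group carried Tcf7 F/F : Vav1-Cre (3 libraries), a homozygous floxed Tcf7 with a Cre recombinase under Vav1 control. Vav1 is active across blood cells, so a deletion by this Cre reaches all blood lineages and begins before the thymus. The labels give no Cre-carrying control with intact Tcf7, and do not say whether libraries came from separate animals. The p-values therefore measure the spread between these libraries, which may be technical.

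TCF-1, the protein of Tcf7, is a DNA-binding protein of the high mobility group class that Notch signals switch on in early thymic progenitors. Together with its relative LEF-1 it binds many T cell genes, works with β-catenin or with Groucho (TLE) co-repressors, and is needed for T lineage specification. TCF-1 is also expressed in precursors of innate lymphoid cells (ILCs), which share many regulators with T cells but carry no rearranged antigen receptor.

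Levels are read counts scaled to library size (CPM) as the authors normalised them, and changes are log2 fold changes of the Cre-labelled over the +/+ libraries from edgeR's quasi-likelihood test, with p-values adjusted by Benjamini-Hochberg over all 12366 genes. Where levels are set against each other, the 2 +/+ libraries come first and the 3 Cre-labelled libraries second, each in replicate order. Over all of its exons, Tcf7 itself had 552 and 594 CPM in +/+ and 847, 658 and 694 CPM in the Cre-labelled libraries (log2 fold change 0.35 ± 0.125 (SE), adjusted p = 0.0497). No Cre-labelled library was below a +/+ library, so gene-level counts do not show the deletion. The labels do not give the floxed exon, and counts over the whole gene do not check it. Each direction below is therefore that of libraries with the Tcf7 F/F : Vav1-Cre label, called Cre-labelled here. The call of Tcf7 as higher was lost without +/+ replicate 1 and without each Cre-labelled library.

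Total counts ran from 1273997 to 1842717 per library. Reads of Y-linked genes were present in both +/+ libraries and Cre-labelled replicate 2 (555 to 715 counts of Ddx3y, Uty, Eif2s3y and Kdm5d together) and nearly absent in Cre-labelled replicates 1 and 3 (0 and 2 counts, with 2091 and 2623 counts of Xist). The sexes were thus mixed within the Cre-labelled group alone. The +/+ libraries differed more from each other (chi-square per degree of freedom 4.94) than any Cre-labelled pair (1.7 to 2.16). The transcript of the sort marker Cd24a was low, at 9.02 and 11.3 CPM against 2.43, 1.7 and 2.23 CPM. Transcripts of the TCRβ constant regions were well above it in every library. Trbc1 was at 104 and 106.5 CPM against 56.6, 46.9 and 49 CPM, and Trbc2 at 137 and 140 CPM against 124.5, 112 and 101 CPM. Cd3e, part of the T cell receptor complex, was at 402 and 369 CPM against 157, 151 and 161 CPM, so RNA of this T cell gene was present in every library.

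Of the 12022 genes, 2779 passed the test at an adjusted p under 0.05, which is 23.1%. They were 1452 higher (12.1%) and 1327 lower (11%) in the Cre-labelled libraries. These shares are the background for every gene group below. Any fit without a +/+ replicate leaves 1 control library, which is assumed to vary like the Cre-labelled libraries. The count rose to 4466 without +/+ replicate 1 and fell to 1652 without Cre-labelled replicate 3. With a term for Y-linked reads in the model, 1086 genes passed, 61.8% of them higher against 52.2% without the term. Among called genes the median log2 fold change was 1.06 for those higher and -0.89 for those lower. An absolute change of at least 1 was reached by 800 and 563 called genes, and of at least 4 by 61 and 68. Called genes were 18.9% of genes at an average log2 CPM of 2 to 4 and 34.8% of those over 8, so calls were more frequent where counts were higher.

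**Figure D1:**
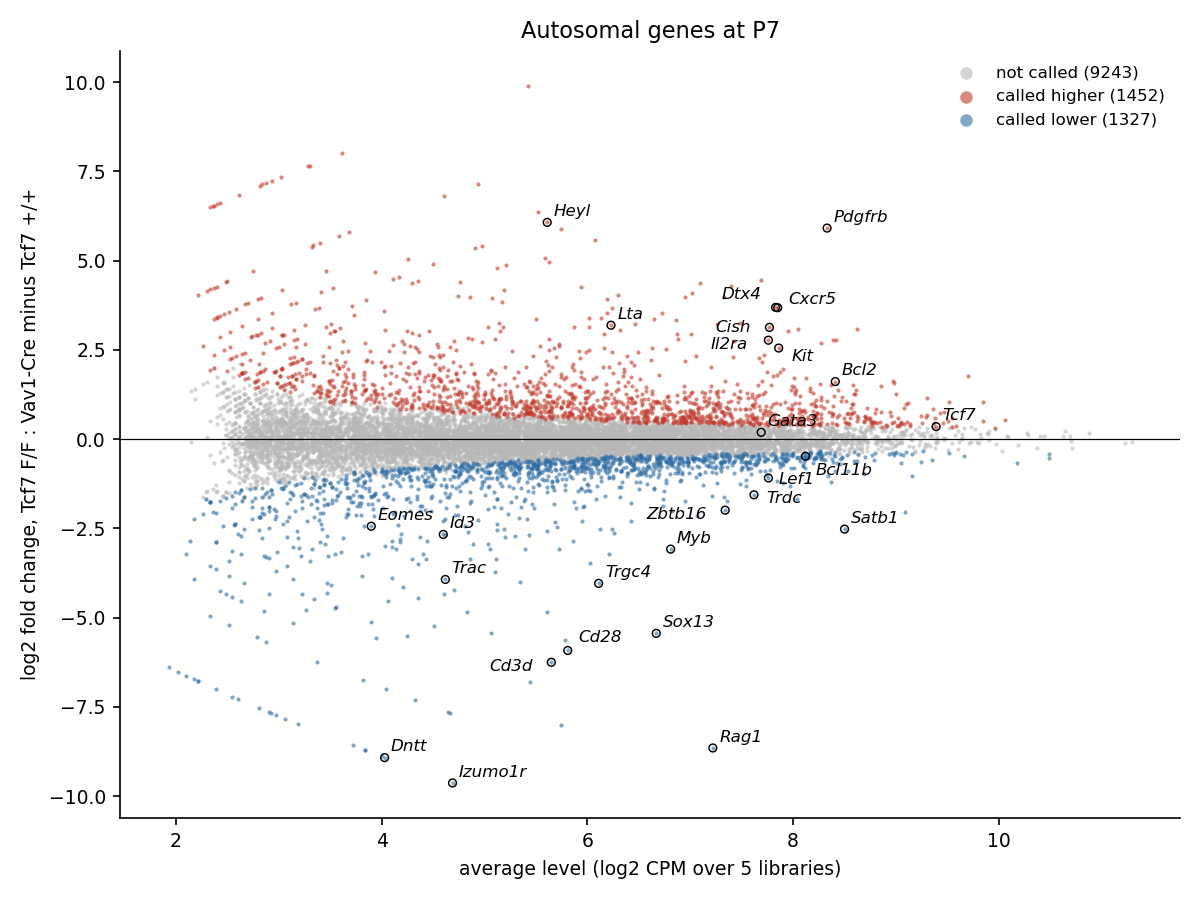
Change against level for the 12022 autosomal genes. The x axis is the average log2 CPM over 5 libraries, the y axis the log2 fold change of the Cre-labelled over the +/+ libraries, red and blue points are genes called higher (1452) and lower (1327), and circles mark named genes; Rag1 and Sox13 lie far below zero and Pdgfrb far above it at high levels, while Tcf7 lies just above it.

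The smallest p-value of all belonged to Rag1 (chr2:101638282-101649501, minus strand, GRCm38), which encodes the catalytic subunit of the recombinase that cuts antigen receptor genes. It had 327 and 399 CPM in +/+ and 0.809, 1.13 and 0.556 CPM in the Cre-labelled libraries (log2 fold change -8.65 ± 0.275 (SE), adjusted p = 1.87e-12). Its partner and neighbour Rag2 (chr2:101624718-101632529, plus strand) was at 13.5 and 16.9 CPM in +/+ and at 0 in all 3 Cre-labelled libraries, at least 24.4-fold lower taking 3 counts for the 3 libraries together as the floor. Dntt, the terminal transferase that adds bases at receptor joints, was at 40.6 and 31.6 CPM and again at 0 (at least 57.8-fold lower). Rag2 overlaps the exons of B230118H07Rik, as does Rag1, and no source used here says whether reads were counted by strand. The same limit holds for 100 of the 305 named genes, which overlap another gene by exons. Cxcr5 (with Bcl9l), Ptgdr2 (with Ccdc86) and Cntnap1 (with Plekhh3), given below, are among them.

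Rag1 and Dntt belong to a list of 15 genes of the pre-TCR stage and V(D)J recombination, of which 14 could be tested. Of these, 11 fell, 1 rose and 2 did not pass, with a median log2 fold change of -2.04 against -0.01 over all 12022 genes. The falls included Arpp21, an RNA-binding protein of immature thymocytes (132 and 122 CPM against 2.43, 2.83 and 2.23 CPM; log2 -5.63), and Endou, an endoribonuclease (32.7 and 24.2 CPM against 0 in all 3). Aqp11, an aquaporin, fell by 2.85 on the log2 scale. Ptcra, which encodes the pre-TCR α chain, had only 1 to 9 counts per library and could not be tested.

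Genes of the T cell receptor complex and its signalling were mostly lower. Of 22 tested members of 23, 14 fell and 2 rose, with a median of -1.16. The 3 CD3 genes lie side by side on chromosome 9 and fell to different degrees. Cd3d (chr9:44981786-44987339, plus strand) had 106 and 127 CPM in +/+ and 1.62, 1.7 and 1.11 CPM in the Cre-labelled libraries (log2 fold change -6.25 ± 0.308 (SE), adjusted p = 2.67e-10). Cd3g (chr9:44969572-44980431, minus strand) was at 158 and 196 CPM against 56.6, 54.8 and 56.2 CPM (log2 -1.67, adjusted p = 5.47e-07). Cd3e (chr9:44998740-45009627, minus strand), with values given above, fell by 1.30 (adjusted p = 6.39e-07). In all 3 genes every Cre-labelled library was below both +/+ libraries, and in Cd3d alone the remaining level was near 1 CPM.

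The promoter of Cd3d is shown because it fell the most of the 3 and holds a TCF/LEF word, CTTTGAT or CTTTGTT read on either strand, close to the start. The 250 bases before the RefSeq start (GRCm38.p6, chr9:44981536-44981785, plus strand) read as follows, with the word in capitals. On this strand it reads as its reverse complement, ATCAAAG, and it begins 55 bases before the start. The second sequence is that of the cytokine gene Il17f (chr1:20784271-20784520, minus strand), which fell less (log2 -0.69, adjusted p = 0.017) and whose word begins 141 bases before the start.
Cd3d: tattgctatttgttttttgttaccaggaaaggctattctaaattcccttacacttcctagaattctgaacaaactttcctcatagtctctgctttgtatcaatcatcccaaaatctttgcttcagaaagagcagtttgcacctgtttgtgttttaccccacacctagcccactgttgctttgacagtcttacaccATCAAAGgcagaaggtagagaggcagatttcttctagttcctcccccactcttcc
Il17f: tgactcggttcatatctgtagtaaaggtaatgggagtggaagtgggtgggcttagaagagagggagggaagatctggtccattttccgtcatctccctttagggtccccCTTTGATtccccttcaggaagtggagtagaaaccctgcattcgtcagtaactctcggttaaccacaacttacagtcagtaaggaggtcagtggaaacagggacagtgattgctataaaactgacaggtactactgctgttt
The search covered 52 of 74 called genes that lead the comparison or were picked from the T cell, type 17, Notch and Wnt lists. Cd3d and Il17f were the 2 of these 52 with the word. The picks followed the rule for named genes given under the data processing, which limits their number per list. Called list members outside that rule, such as Cd5, Ubash3a, Cd8a, Cd247 and Fyn, were not searched. Some called genes, Pdgfrb and Nfatc1 among them, were left out of this search by their chromosome. Whether the genes left out hold the word is not given here. Over all 8791 autosomal genes with such a RefSeq window (first listed start of each), 5.41% held the word. The share was 4.97% of called higher and 5.73% of called lower genes, close to that background. The RUNX word TGTGGT was in 11.8% of higher, 11.1% of lower and 11.1% of all windows. The E-box word CAGCTG was in 14% of windows of higher genes, 9.05% of lower and 11.3% of all, at mean GC contents of 60.0%, 60.3% and 60.0%. The call of Il17f was lost without +/+ replicate 2, Cre-labelled replicate 2 or Cre-labelled replicate 3.

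Co-stimulatory and adhesion receptors of T cells changed with the CD3 genes. Cd28, the main co-stimulatory receptor, had 101 and 161 CPM in +/+ and 1.62, 3.39 and 1.11 CPM in the Cre-labelled libraries (log2 fold change -5.92 ± 0.347 (SE), adjusted p = 2.03e-09), and without Cre-labelled replicate 2 its change was -6.54. Cd6, a receptor that tunes T cell activation, was at 81.7 and 94.7 CPM against 6.47, 4.52 and 5.56 CPM (log2 -4.0). Cd2, an adhesion receptor, was at 32.7 and 45.7 CPM against 4.04, 2.83 and 4.45 CPM (log2 -3.36). Cd27, a TNF receptor family member, fell by 1.94. Each of these 4 had non-overlapping groups, as had 5872 (48.8%) of all genes. Prkcq, the kinase PKCθ downstream of CD28, fell by 1.72. Cd5 (-2.31) and Ubash3a (-2.55), which dampen TCR signals, the co-receptor genes Cd8a (-0.97) and Cd8b1 (-1.83) and the ζ chain gene Cd247 (-1.03) also fell. Among proximal kinases and adaptors, Fyn fell by 0.50, whereas Lck (-0.31), Zap70 (-0.27), Lat (-0.11) and Lcp2 (-0.13) did not pass the test. The 2 that rose were Nfatc1 (0.72), a calcium-regulated transcription factor, and Cd4 (0.80), which is also made by some innate lymphoid cells and myeloid cells.

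The antigen receptor loci moved segment by segment. Of 7 tested constant regions, 5 fell and 2 did not pass, in the fit with all libraries and without each in turn. Trac, the α constant region, was at 45.6 and 57.5 CPM against 1.62, 3.39 and 4.45 CPM (log2 -3.93, adjusted p = 1.27e-07). Trbc1 fell by 1.06, whereas Trbc2, the other β constant region, changed by -0.30 (adjusted p = 0.155). Trdc, the δ constant region (chr14:54142851-54148868, plus strand), had 294 and 349 CPM in +/+ and 118, 106 and 105 CPM in the Cre-labelled libraries (log2 fold change -1.56 ± 0.136 (SE), adjusted p = 2.44e-07). Trdc overlaps Trdv5, so their reads cannot be fully separated.

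In the γ locus on chromosome 13, members went in opposite directions. Trgc4 had 122 and 183 CPM in +/+ and 11.3, 7.34 and 9.46 CPM in the Cre-labelled libraries (log2 -4.04, adjusted p = 3.43e-09) and Trgc2 98.6 and 129 CPM against 23.4, 23.2 and 22.8 CPM (log2 -2.30). Trgc1 was at 80 and 96.4 CPM against 129, 109 and 87.3 CPM and did not pass (log2 0.29, adjusted p = 0.276). Among variable segments, Trgv1 (40 and 42.8 CPM against 1.62, 0.565 and 0.556 CPM), Trgv2 (log2 -4.84) and Trgv4 (log2 -3.21) fell. Trgv5 rose from 14.1 and 3.38 CPM to 32.3, 29.9 and 30.0 CPM (log2 1.80, adjusted p = 0.00188), and Trgv7 rose by 2.27. The +/+ levels of Trgv5 differed by over 4 times. Trgv6 did not pass (0.83, adjusted p = 0.293). The segments named here other than constant regions were chosen after their values were seen. The near-identical constant and variable segments of this locus can share reads, so their separate values are uncertain. In the δ locus Trdv5 fell (log2 -4.47) and Trdv4 was at 9.58 and 11.8 CPM against 8.09, 9.61 and 9.46 CPM (log2 -0.23, adjusted p = 0.689). The β segments Trbv12-2 and Trbv13-2 had no counts in any Cre-labelled library.

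**Figure D2:**
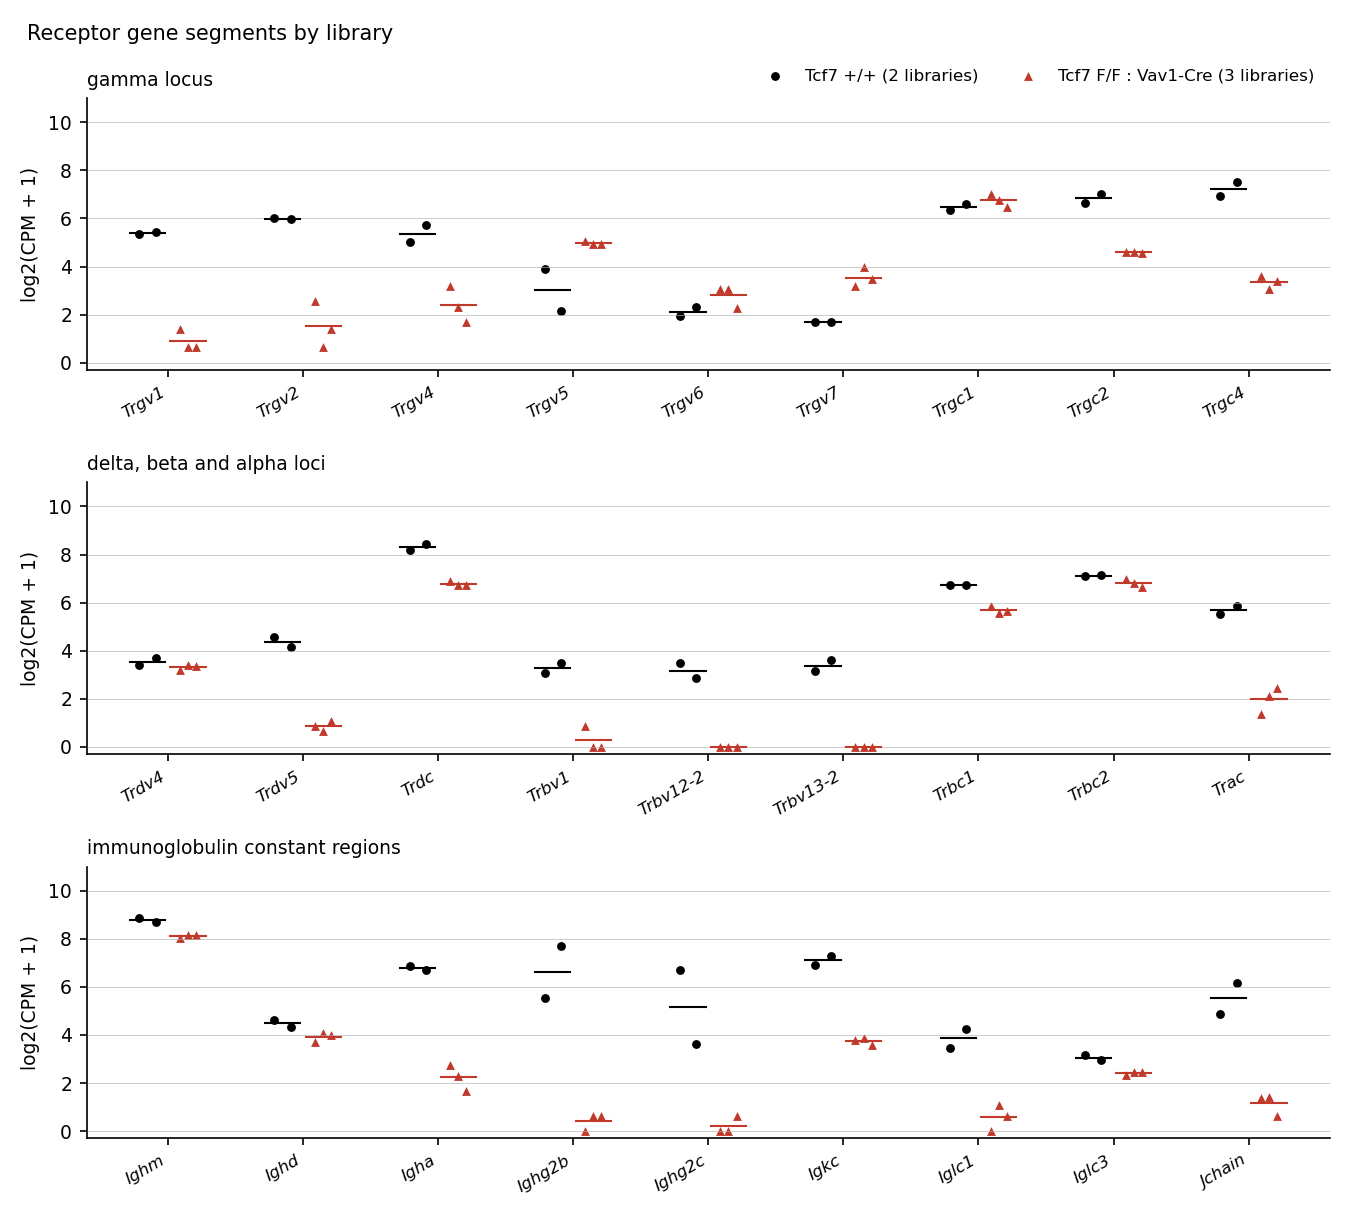
Antigen receptor and immunoglobulin segments by library. Each point is 1 library (black circles +/+, red triangles Cre-labelled), bars are group means, and the y axis is log2(CPM + 1); Trgc4, Trgc2 and Trgv1 were lower in every Cre-labelled library, Trgv5 and Trgv7 higher, and the groups overlapped or nearly met for Trgc1 and Trdv4.

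The list for γδ T cells, an early T cell lineage that uses these γ and δ chains, held 15 tested genes, of which 6 fell, 3 rose and 6 did not pass (median -0.26). Sox13, a transcription factor of interleukin-17-producing γδ cells, had 219 and 258 CPM in +/+ and 7.28, 6.21 and 3.34 CPM in the Cre-labelled libraries (log2 fold change -5.44 ± 0.23 (SE), adjusted p = 8.28e-11), the second smallest p-value among falls after Rag1. Sox4, its relative, was at 53 and 78.9 CPM against 15.4, 15.3 and 15 CPM (log2 -2.11). Zbtb16, which encodes PLZF, a factor of innate-like T cells and ILC precursors, was at 229 and 350 CPM against 78.4, 67.2 and 74 CPM (log2 fold change -1.99 ± 0.172 (SE), adjusted p = 2.19e-07). The scavenger receptor gene Scart2, listed as 5830411N06Rik, fell by 2.03 from 859 and 1121 CPM. In contrast, Maf, a factor of interleukin-17 programmes, rose by 0.60, and the membrane protein genes Tmem176a and Tmem176b rose by 1.72 and 1.51. The last 2 overlap each other, so they are not independent.

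Factors of the T lineage went both ways, 7 lower and 6 higher of 18. Satb1, a chromatin organiser of thymocytes, had 636 and 785 CPM in +/+ and 125, 121 and 124 CPM in the Cre-labelled libraries (log2 fold change -2.52 ± 0.129 (SE), adjusted p = 4.93e-10). Myb, required in early thymocytes, was at 198 and 267 CPM against 26.7, 26.6 and 28.9 CPM (log2 -3.08), and Themis, which sets TCR signal strength during selection, at 61.4 and 88.5 CPM against 0.809, 0.565 and 3.34 CPM (log2 -5.43). The single highest Themis value among Cre-labelled libraries, that of replicate 3, moved the fold by over 1.5 times: without it the change was -6.66. Ets2 fell by 1.89 and Ikzf1 by 0.58. Tox (0.91), Tox2 (1.78), Runx3 (0.49) and Zbtb7b (1.06) rose. Tox and Tox2 encode related high mobility group proteins, Runx3 is a factor of cytotoxic and innate lymphoid cells, and Zbtb7b encodes the CD4 lineage factor ThPOK. With the term for Y-linked reads, 4 members were lower and 3 higher.

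Values for the zinc finger genes Bcl11b, Bcl11a and Gata3 were smaller. Bcl11b, a T commitment factor, was at 324 and 343 CPM against 209, 269 and 235 CPM (log2 fold change -0.48 ± 0.132 (SE), adjusted p = 0.0131), a call that was lost without Cre-labelled replicate 1 or replicate 3. Bcl11a, its relative, was at 261 and 167 CPM against 193, 214 and 194 CPM (log2 -0.09, adjusted p = 0.728), and Gata3 at 172 and 206 CPM against 200.5, 250.3 and 196 CPM (log2 0.19, adjusted p = 0.383). For Bcl11a the +/+ pair spanned all 3 Cre-labelled values.

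Lef1, the closest relative of Tcf7, was lower in every Cre-labelled library, at 269 and 361 CPM against 154, 125 and 166 CPM (log2 fold change -1.09 ± 0.155 (SE), adjusted p = 5.95e-05). Tcf7l2 did not pass (-0.63), and Tcf7l1 could not be tested. Of 10 tested feedback genes of the Wnt pathway, to which β-catenin and the TCF/LEF proteins belong, 2 rose and 2 fell, with a median of -0.05. Axin2, an inhibitor that Wnt signals induce, was at 37.8 and 53.5 CPM against 20.2, 19.2 and 21.7 CPM (log2 -1.16, adjusted p = 0.00156), and Tle4, a Groucho co-repressor, fell by 0.63. Rnf43, a ligase that removes Wnt receptors, rose by 0.73 and the secreted Dkk3 by 1.86. Among the inhibitors of E proteins, Id3 was at 47.9 and 42.8 CPM against 6.47, 9.61 and 5.01 CPM (log2 -2.67) and Id2 at 299 and 249 CPM against 494, 437 and 403 CPM (log2 0.70), so the 2 Id genes moved in opposite directions. The E protein gene Tcf12 fell by 0.65.

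Genes of type 17 lymphocytes and ILC3, the innate lymphoid group that makes interleukin-17 and interleukin-22, mostly rose. Of 17 tested members of 18, 10 rose and 3 fell, with a median of 0.81. Rora (0.81), a nuclear receptor of innate lymphoid cells, and Ahr (1.38), the aryl hydrocarbon receptor needed by ILC3, also rose. Cxcr5, a chemokine receptor that guides cells to lymphoid follicles, was at 27.1 and 29.9 CPM against 404, 341 and 358 CPM (log2 fold change 3.68 ± 0.168 (SE), adjusted p = 1.52e-10), and Ccr6, a chemokine receptor of lymphoid tissue inducer cells, at 95.2 and 90.2 CPM against 345, 303 and 314 CPM (log2 1.79). Lta, the cytokine lymphotoxin α, was at 19.2 and 6.2 CPM against 105, 119.8 and 124 CPM (log2 3.19). The fold of Lta moved by over 1.5 times without either +/+ library, from 2.60 without replicate 2 to 4.22 without replicate 1, both on the log2 scale.

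The interleukin-17 genes went the other way. Il17a was at 37.8 and 56.9 CPM against 19.4, 26.6 and 29.5 CPM (log2 -0.89, adjusted p = 0.0133) and Il17f fell by 0.69, while Il22 had 2 counts in all. The call of Il17a was lost without +/+ replicate 2 or Cre-labelled replicate 1. The receptor genes Il1r1 (1.17) and Il17re (1.19) rose, and Il23r (0.13), Ltb (0.41) and Tnfsf11 (0.43) did not pass. With the term for Y-linked reads 8 members were called higher and 0 lower, and without +/+ replicate 2, 1 was lower.

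Among 14 tested ILC2 genes of 18, 6 rose and 4 fell. Il2ra, the interleukin-2 receptor α chain also used as a marker of early thymocytes, was at 45.1 and 51.3 CPM against 351, 332 and 306 CPM (log2 fold change 2.77 ± 0.155 (SE), adjusted p = 1.64e-09). Ptgdr2, the prostaglandin D2 receptor CRTH2, was at 19.2 and 10.2 CPM against 110, 149 and 109.6 CPM (log2 3.06), and the cytokine Il13 rose by 1.94 while Il4 fell by 1.56. Of 18 ILC precursor genes 8 rose and 4 fell. Pdcd1, the receptor PD-1, rose from 87.9 and 95.8 CPM to 336, 274.6 and 324 CPM (log2 1.76), Zbtb16 fell as described, and Il18r1 (0.07), Itga4 (-0.06) and Ets1 (0.01) did not pass. With the term for Y-linked reads, 5 and 1 ILC2 genes and 5 and 2 ILC precursor genes were called higher and lower.

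Natural killer (NK) cell and ILC1 genes were mostly lower. Of 23 tested members of 28, 13 fell and 3 rose, with a median of -1.16. The T-box factors of these cells were both lower: Eomes was at 34.9 and 17.5 CPM against 3.23, 6.78 and 3.89 CPM (log2 -2.44, adjusted p = 0.000197) and Tbx21 at 108 and 81.2 CPM against 38, 35.6 and 35.6 CPM (log2 -1.38). Without +/+ replicate 1 the change of Eomes was -1.85. Klrk1, the activating receptor NKG2D, was at 143 and 176 CPM against 26.7, 29.4 and 41.2 CPM (log2 -2.28), and its neighbours in the NK gene complex on chromosome 6, Klrd1 (-1.39), Klrc1 (-2.39) and Klrc2 (-1.68), fell with it. Klrb1b, from the same complex, rose by 1.67. Without +/+ replicate 1, 5 members of the list were higher. Ncr1, the receptor NKp46, fell by 1.16, and the integrin genes Itga1 and Itga2 by 1.38 and 1.47. Il2rb, the receptor chain that interleukin-2 and interleukin-15 share, was at 950 and 811 CPM against 1060, 867 and 1021 CPM and did not pass.

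Among 15 tested genes of cytotoxic granules and effector cytokines, 6 fell and 1 rose. Ifng, the type 1 cytokine interferon γ, was at 29.3 and 28.8 CPM against 7.28, 7.91 and 5.01 CPM (log2 -2.11), and Gzmc fell by 1.86. Gzma (0.19) and Prf1 (0.31), a granule protease and perforin, did not pass. Gzmb rose (0.54, adjusted p = 0.0137), a call lost without +/+ replicate 2, Cre-labelled replicate 1 or Cre-labelled replicate 2. Without +/+ replicate 1, 5 members were called higher.

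**Figure D3:**
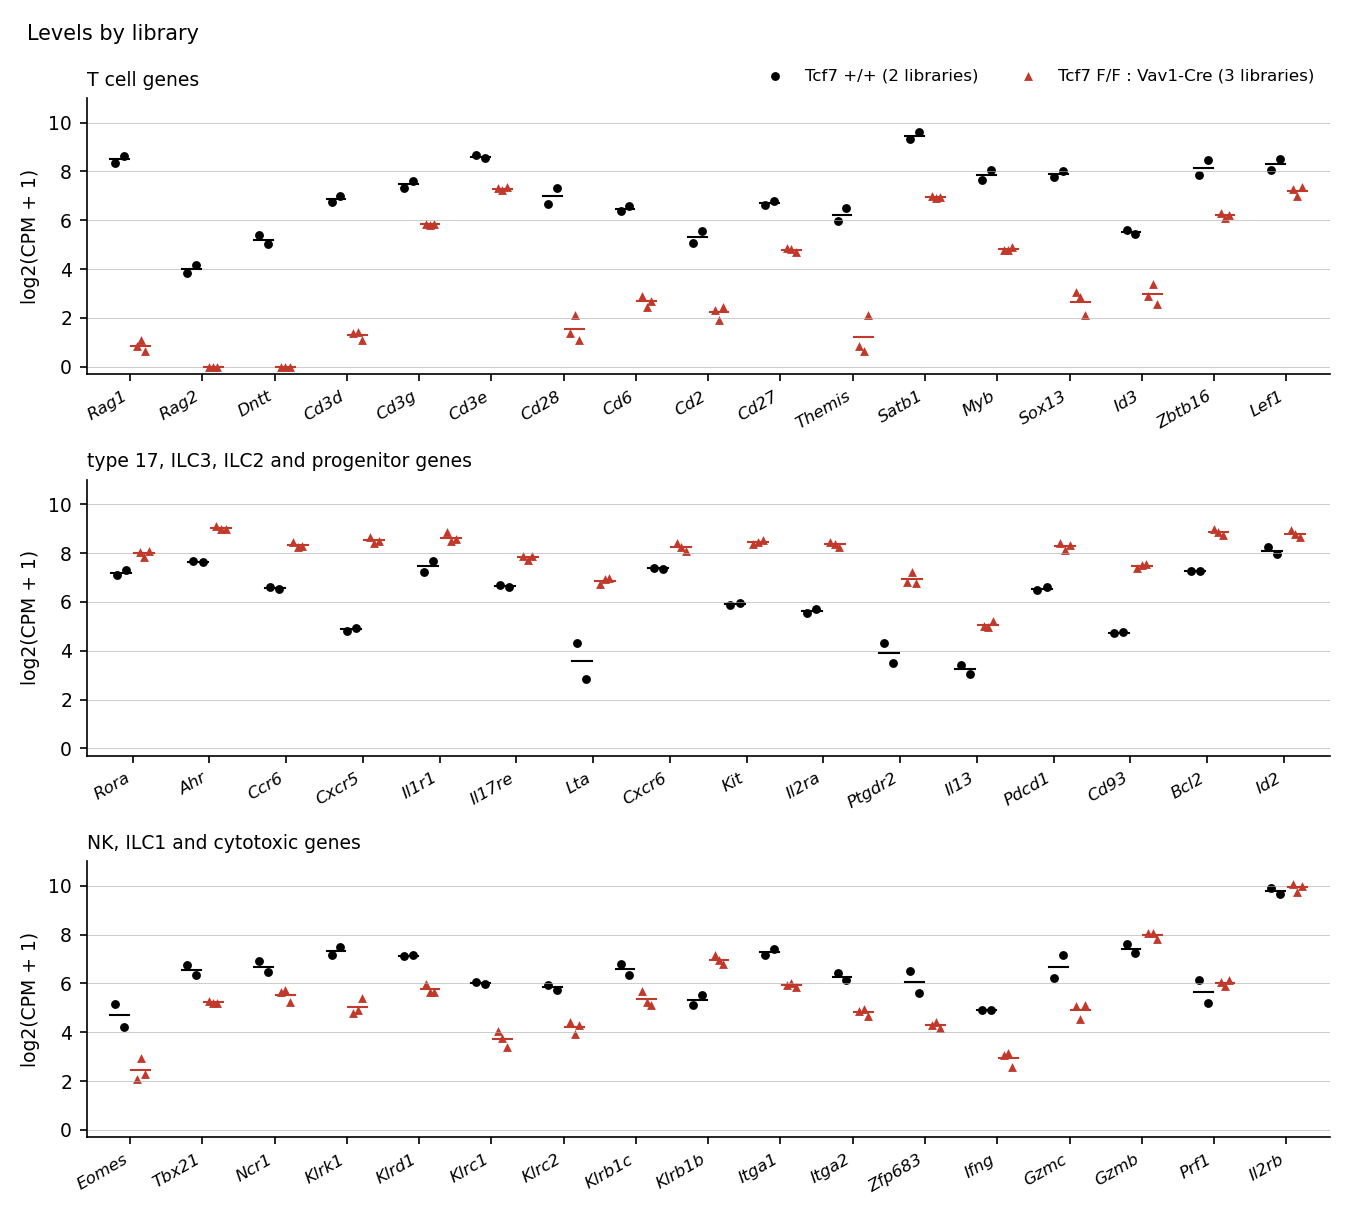
Levels of T cell genes (top), type 17, ILC and progenitor genes (middle) and NK and cytotoxic genes (bottom) by library. The y axis is log2(CPM + 1), black circles are the 2 +/+ and red triangles the 3 Cre-labelled libraries, and bars are means. The genes shown are a selection. All 17 T cell genes shown are lower in each Cre-labelled library and the 16 of the middle panel higher, where 48.8% of all genes had non-overlapping groups. The top panel leaves out the 2 TCR signalling genes and 6 T lineage factors called higher. The middle panel leaves out the genes called lower in its lists (type 17 3, ILC2 4, ILC precursors 4, progenitors 1). In the bottom panel Klrb1b and Gzmb are higher while Prf1 and Il2rb overlap.

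Progenitor genes were mostly higher: of 13 tested of 18, 6 rose and 1 fell (median 0.86). Kit, the stem cell factor receptor of early thymic progenitors, mast cells and some ILCs, was at 56.9 and 61.4 CPM against 327, 349 and 366 CPM (log2 fold change 2.55 ± 0.147 (SE), adjusted p = 2.03e-09). Cd93, a surface protein of progenitors, was at 25.4 and 25.9 CPM against 165, 182 and 188 CPM (log2 2.80). Csf1r (1.27) and Spi1 (1.08), the growth factor receptor and the factor PU.1 of myeloid and progenitor cells, rose, and Mef2c fell by 0.82. Flt3 (0.01), Lyl1 (0.86) and Meis1 (0.30) did not pass, and Cd34 and Hoxa9 were too low to test.

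Of 11 tested Notch receptors and targets, 4 rose and 1 fell. Heyl, a repressor induced by Notch, was at 1.69 and 0.564 CPM against 92.2, 71.2 and 80.1 CPM (log2 fold change 6.07 ± 0.389 (SE), adjusted p = 4.79e-09). Dtx4, a Deltex family ligase, was at 29.3 and 26.5 CPM against 358, 328 and 397 CPM (log2 3.69). The others that rose were Il2ra and the receptor Notch2 (0.60). Notch1 (0.37), Notch3 (0.37), Dtx1 (0.17) and Hey1 (-0.97) did not pass, and Hes1 and Nrarp had 8 counts or fewer per library. The fold of Heyl rests on a +/+ level near 1 CPM; without +/+ replicate 1 its log2 value was 6.98.

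Cytokine receptors split into 9 higher and 5 lower of 26. Il7r, the interleukin-7 receptor α chain, was at 320.1 and 399 CPM against 557, 456 and 394 CPM and did not pass (log2 0.38, adjusted p = 0.0746). Il4ra (1.14), Il12rb1 (1.27) and Ifngr2 (1.07) rose and Il12rb2 (-1.38) and Il9r (-0.98) fell. The chains of the interleukin-12 receptor thus moved oppositely, Il12rb1 at 145 and 134 CPM against 326, 323 and 365 CPM and Il12rb2 at 49.6 and 44.5 CPM against 15.4, 16.4 and 21.7 CPM. Downstream, 6 of 17 genes of cytokine signalling rose and 3 fell. Cish, a feedback inhibitor induced by STAT5, was at 45.6 and 31.6 CPM against 328, 322 and 364 CPM (log2 fold change 3.13 ± 0.174 (SE), adjusted p = 1.61e-09), Socs2 rose by 1.57 and Socs1 by 1.36, while Socs3 fell by 0.75. The cytokine Lif rose by 3.36, from 14.7 and 15.8 CPM to 138, 136 and 195 CPM. Stat4 fell by 1.33, and with the term for Y-linked reads 0 members of this list and 1 cytokine receptor were called lower. Without Cre-labelled replicate 1, 3 cytokine receptors were lower.

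Receptors that guide migration went both ways, with 7 of 18 rising and 5 falling. S1pr1, which directs exit from the thymus, was at 99.7 and 98.1 CPM against 21, 18.1 and 15 CPM (log2 -2.47), Ccr9, the chemokine receptor of thymus and gut homing, at 494 and 433 CPM against 235, 222 and 226 CPM (log2 -1.03), and Ccr10 at 37.8 and 48.5 CPM against 4.85, 1.13 and 0.556 CPM (log2 -4.46). Without Cre-labelled replicate 1, the highest of its group, the value of Ccr10 was -5.57. Ccr1 rose by 3.39 (4.02 without +/+ replicate 1) and Ccr7 by 0.99. The laminin-binding integrin gene Itga6 fell by 1.44, while Itga5 rose by 1.49 and Itgav by 0.83. In the CD28 and TNF families, 11 of 24 rose and 5 fell: Tnf was at 33.8 and 25.4 CPM against 114, 94.9 and 111 CPM (log2 1.85), Tnfsf8 rose by 1.74 and Havcr2, the receptor TIM-3, by 1.66, and Btla fell by 1.93. Integrins called higher numbered 4 of 17, and 8 without +/+ replicate 1.

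Outside these groups stood some of the strongest single changes. Pdgfrb (chr18:61045150-61085061, plus strand), a platelet-derived growth factor receptor of mesenchymal cells, had 10.1 and 7.33 CPM in +/+ and 537, 493 and 562 CPM in the Cre-labelled libraries (log2 fold change 5.91 ± 0.198 (SE), adjusted p = 2.8e-12), the smallest p-value of any riser. Of other mesenchymal genes in the stromal list, Pdgfra, Col1a1, Col1a2, Col3a1 and Dcn had 1 to 7 counts each over all 5 libraries. Sparc had 10 and 4 counts against 0, 1 and 3, and Vim was tested and did not pass. The cells from which the Pdgfrb reads came were not tested. Adamts2, a procollagen peptidase, was at 18.6 and 11.8 CPM against 367, 305 and 337 CPM (log2 4.46), Plekhg1, a guanine nucleotide exchange factor, at 15.8 and 11.8 CPM against 264, 293 and 263 CPM (log2 4.30), Tdrd9, a helicase best known from the germ line, at 13 and 8.46 CPM against 221, 226 and 221 CPM (log2 4.37), and Kcnk1, a potassium channel, at 14.1 and 10.7 CPM against 205, 198 and 191 CPM (log2 3.99). In each of these the lowest Cre-labelled library was far above both +/+ libraries.

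The largest folds among risers came from genes nearly silent in +/+. Eps8l3 (chr3:107877229-107892900, plus strand), related to a regulator of actin, was at 0 in +/+ and at 74.4, 67.2 and 72.3 CPM (at least 84.0-fold higher). 4933431E20Rik and Gm43745, at the same locus, rose with it, so these 3 genes are not independent. Zbtb7c, a zinc finger gene, was 90.1-fold higher (exact 95% counting interval 30.6 to 439). Fbxl21, an F-box gene, was 140-fold higher (24.9 to 5570), and these intervals cover counting error only. All counts of Zbtb7c in +/+ came from replicate 1, and the fitted log2 fold change was 6.36 with both, 5.42 without replicate 2 and 9.96 without replicate 1. Fbxl21 had 1 count in +/+, also in replicate 1, and its fitted log2 fold change was 6.81 with both, 5.96 without replicate 2 and 9.03 without replicate 1. Among fallers, Izumo1r, the folate receptor family member FR4 of regulatory and anergic T cells, was at 50.7 and 67.6 CPM against 0 (at least 94.8-fold lower). Zfp536 (at least 56.4-fold), Slc16a5 (at least 50.1-fold) and 2600014E21Rik (at least 50.1-fold) also had no counts in the Cre-labelled libraries. Trpm6, a magnesium channel, was at 86.8 and 116 CPM against 0, 1.7 and 0.556 CPM (log2 -6.80; -7.96 without Cre-labelled replicate 2), and Cntnap1 at 153 and 155 CPM against 18.6, 16.4 and 15 CPM (log2 -3.21). In all, 21 called genes had no count in the Cre-labelled and 15 none in the +/+ libraries.

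Markers of other cells moved with the groups, and their part in the results above was not tested; in bulk RNA, fewer cells of a type and less RNA per cell cannot be told apart. Of 16 tested genes of mature αβ T cells, 14 of which another list also holds, 10 fell and 4 rose, and their summed level was 2438 and 2588 CPM in +/+ and 1471 to 1600 in the Cre-labelled libraries. Of 15 tested B lineage genes, 10 fell and 1 rose (summed level 1037 and 914.8 against 526 to 590.3 CPM). Igkc, the κ light chain, was at 119.5 and 157 CPM against 12.9, 13.6 and 11.1 CPM (log2 -3.46). Igha, the constant region of immunoglobulin A, was at 116 and 104 CPM against 5.66, 3.96 and 2.23 CPM (log2 -4.84) and Ighg2b at 45.6 and 206 CPM against 0, 0.565 and 0.556 CPM; the Ighg2b levels of the +/+ libraries differed by over 4 times. Vpreb1 and Vpreb3, genes of B cell precursors, had 0 counts in every library, and Cd79b (0.08) and Cd22 (0.03) did not pass. Bank1, a B cell adaptor, was the member that rose (2.03).

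Myeloid markers were higher in 8 of 17 tested and lower in none (3 without +/+ replicate 2), with a summed level of 1316 and 752 against 1644 to 1807 CPM. Lyz2, lysozyme, was at 263 and 164 CPM against 514, 415 and 416 CPM (log2 1.07) and Csf3r, the granulocyte growth factor receptor, at 27.6 and 9.02 CPM against 75.2, 84.2 and 104 CPM (log2 2.26; 3.29 without +/+ replicate 1). The macrophage complement genes C1qa (-0.27), C1qb (-0.31) and C1qc (-0.63) did not pass, and Elane had 0 counts throughout. In Lyz2, Csf3r and C1qb +/+ replicate 2 was the lowest library. Dendritic cell and MHC class II genes were higher in 6 of 17, a count that fell to 2 without +/+ replicate 2 and rose to 9 without +/+ replicate 1. The member called lower was Ccr9, and without +/+ replicate 2, 4 were. Their summed level overlapped between groups (4368 and 3166 against 3825 to 4282 CPM).

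Mast cell and basophil genes were higher in 8 of 10 tested, Kit and Il1rl1 among them (Il1rl1 with log2 1.34, and 1.93 without +/+ replicate 2). Of the 15 listed, 4 (Gata2, Kit, Il1rl1 and Srgn) are also in another list. The summed level was 299 and 346 against 734 to 758 CPM. That sum includes Kit at 56.9 and 61.4 against 327, 349 and 366 CPM. Genes of mature mast cells and basophils differed between the Cre-labelled libraries. Cpa3 was at 0.564 and 1.13 CPM against 28.3, 10.7 and 2.23 CPM, Tpsb2 at 0 and 0 CPM against 19.4, 14.1 and 0 CPM and Mcpt8 at 1.69 and 3.38 CPM against 3.23, 25.4 and 6.12 CPM, while Mcpt4 had 21 counts in Cre-labelled replicate 1 and Prss34 33 counts in replicate 2 and neither had any elsewhere. Without Cre-labelled replicate 2, 5 members were called. Haemoglobin genes Hba-a1, Hba-a2 and Hbb-bs had 0 counts in every library. Of 10 tested thymic epithelial and stromal genes, 3 rose and 1 fell: Aire, which drives self-antigen expression, was at 15.2 and 18 CPM against 0.809, 1.13 and 1.11 CPM (log2 -3.91), Krt8 rose by 2.69 (4.09 without +/+ replicate 2 and 1.99 without replicate 1), and the epithelial genes Krt5, Krt14 and Foxn1 had 7, 1 and 3 counts over all libraries. The platelet and red cell list had 2 tested members and no call. The stromal list also holds the risers Pdgfrb, described above, and Pecam1, while 6 of its tested members did not pass. Its summed level was 1078 and 1060 against 1613 to 1840 CPM. That sum includes Pdgfrb at 10.1 and 7.33 against 537, 493 and 562 CPM. It also includes Pecam1 at 199.5 and 178.7 against 358, 306 and 336 CPM.

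Genes of the dividing cell were lower or did not pass. In DNA replication 13 of 27 tested fell and none rose (median -0.53), and in G2 and mitosis 17 of 28 fell and none rose (median -0.76). Mki67, a protein of cycling cells, was at 602 and 1044 CPM against 432, 419 and 363 CPM (log2 -1.03, adjusted p = 0.00025), and Top2a, which untangles replicated DNA, at 384 and 635 CPM against 287, 281 and 249 CPM (log2 -0.90). Rrm1, of ribonucleotide synthesis, was at 212 and 268 CPM against 137, 123 and 112 CPM (log2 -0.96). In each of these +/+ replicate 2 was the highest library. These counts moved with the libraries used: the replication count was 21 without +/+ replicate 1 and 6 without Cre-labelled replicate 3, and the mitosis count was 10 without +/+ replicate 2. With the term for Y-linked reads, 2 and 3 genes were called. Of 15 tested histone genes 5 fell, and 1 without Cre-labelled replicate 1.

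Myc, a growth-promoting factor and Notch target, was at 141 and 152 CPM against 42.9, 46.3 and 36.7 CPM (log2 fold change -1.80 ± 0.167 (SE), adjusted p = 4.72e-07). Of 20 tested genes of the MYC and ribosome biogenesis list, which holds Myc itself, 13 fell and 1 rose (median -0.60). Nop58 (-1.45), Wdr43 (-1.10) and Ncl (-1.0), all of ribosome assembly in the nucleolus, were lower, and Odc1, of polyamine synthesis, was higher at 68.7 and 114 CPM against 176, 191 and 190.3 CPM (log2 1.02). The lower count was 8 without Cre-labelled replicate 2 and 4 with the term for Y-linked reads. Structural ribosomal protein genes were lower in 4 of 32 (12.5%), oxidative phosphorylation genes in 1 of 29 (3.45%) and cholesterol synthesis genes in 2 of 18 (11.1%), near or under the background of 11% for falls. Without +/+ replicate 1 these counts were 12, 5 and 3. Glycolysis and hypoxia genes were lower in 7 of 20 (4 without Cre-labelled replicate 1), among them Tpi1 (-0.86), Pfkp (-0.59) and Vegfa (-1.92).

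Bcl2, which blocks cell death, rose in every Cre-labelled library, from 154 and 152 CPM to 509, 464 and 426 CPM (log2 fold change 1.61 ± 0.133 (SE), adjusted p = 1.34e-07). Its relatives Mcl1 (0.17), Bcl2l11 (0.24) and Bax (0.19) did not pass, and Fas, a death receptor, fell by 2.29 (-2.96 without Cre-labelled replicate 1). Of 19 tested members of the BCL2 family and p53 target list, 4 rose and 2 fell, with 1 rising without +/+ replicate 2 and 6 without +/+ replicate 1. Immediate early and AP-1 genes, which respond to stimulation and to tissue handling, were higher in 12 of 23 and lower in 2. Fosb was at 235 and 185 CPM against 512, 330.5 and 657 CPM (log2 1.25), Jun at 138 and 93.6 CPM against 226, 215 and 312 CPM (log2 1.12) and Fosl2 rose by 1.17, while Egr1 (-0.10) and Jund (0.00) did not pass and Dusp2 fell by 1.39. Cre-labelled replicate 3 was the highest library for these 3 AP-1 genes, and without it 6 members were higher; with the term for Y-linked reads 4 were.

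Interferon response genes were higher in 14 of 29 tested and lower in none (median 0.54). Oas2, a sensor of viral RNA, was at 38.3 and 36.6 CPM against 80.9, 97.8 and 102 CPM (log2 1.33), Usp18, a feedback inhibitor of the interferon receptor, at 68.7 and 57.5 CPM against 128, 129 and 129 CPM (log2 1.03), and Irf7 rose by 0.83. Ifit1 (0.34) and Isg15 (0.75) did not pass. The count was 8 without Cre-labelled replicate 1 and 6 with the term for Y-linked reads. MHC class I and antigen processing genes rose in 9 of 16 and fell in 1. H2-Q6 rose by 1.31, H2-Q7 by 1.20 and Nlrc5, the activator of this gene class, by 0.75. The count of risers was 7 without Cre-labelled replicate 1 and 4 with the term for Y-linked reads. The H2-Q genes are near-identical copies and may share reads. Of 13 tested TGF-β response genes 4 rose, 2 without Cre-labelled replicate 1, and 1 fell, and of 16 heat shock and unfolded protein genes 4 fell, 1 without Cre-labelled replicate 3 and 9 without +/+ replicate 1. NF-κB response genes were higher in 6 of 18 and lower in none, with Cd83 at 1.27 and Nfkb1 at 0.66; 3 were higher without +/+ replicate 2 and 10 without +/+ replicate 1. Chromatin complexes of the NuRD, Polycomb and BAF types were lower in 8 of 28, and Ezh2 fell by 0.95; 3 were lower without Cre-labelled replicate 1 and 0 with the term for Y-linked reads.

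**Figure D4:**
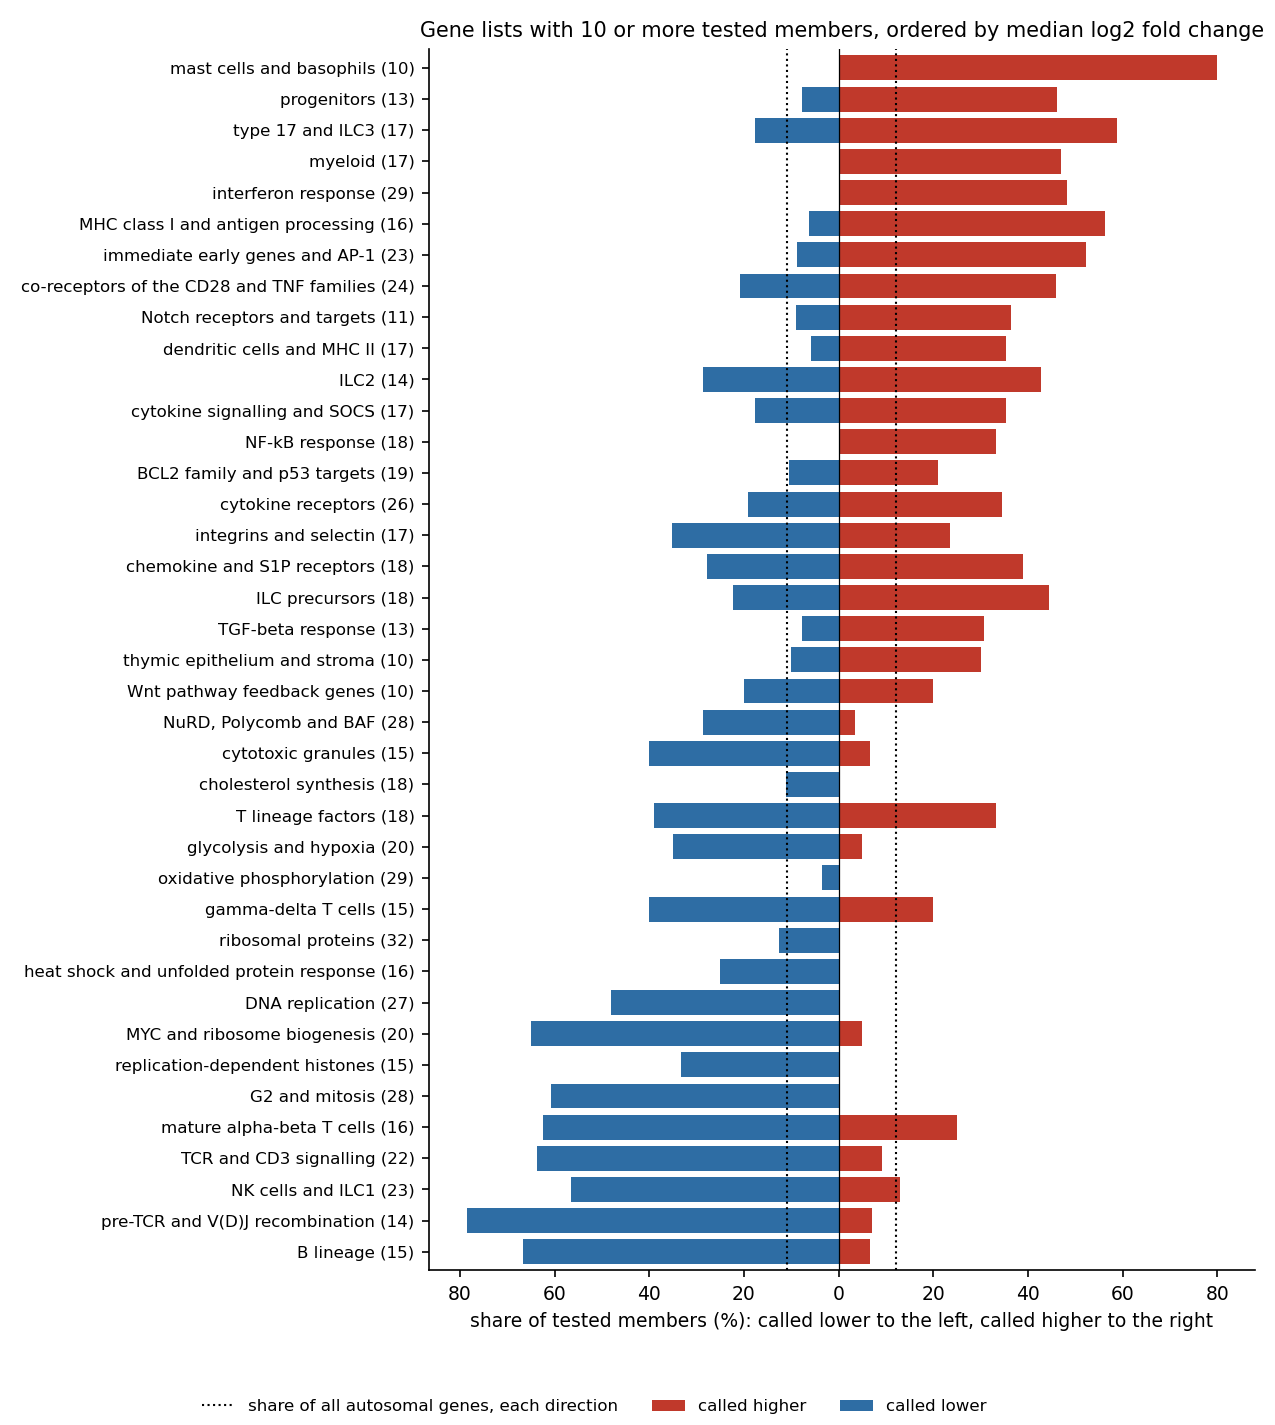
Share of tested members called higher (red, to the right) and lower (blue, to the left) in each list with 10 or more tested members, number tested in brackets. Dotted lines mark the shares over all autosomal genes, 12.1% higher and 11% lower; the pre-TCR (11 of 14), B lineage (10 of 15) and MYC (13 of 20) lists reach farthest to the left and the mast cell (8 of 10) and type 17 (10 of 17) lists farthest to the right.

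Called genes were spread over the genome. Per chromosome 18.7% (chromosome 8) to 28.1% (chromosome 6) were called. In 203 windows of 10 Mb with at least 20 tested genes, the share ran from 0% to 48.1% with a median of 23.7%, and was highest at 40 to 50 Mb of chromosome 1. Within 5 Mb of Tcf7 on chromosome 11, 18 of 80 genes were higher and 6 lower (30.0%), against 25% of the tested genes of that chromosome. Adamts2, Il13 and Il4, described above, are among these 80 genes. Within 1 Mb 3 of 21 genes were called (14.3%). Tested pseudogenes of the processed kind were higher in 15 and lower in 1 of 115.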

How the data were processed

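Bulk RNA sequencing of 5 libraries was used, 2 labelled Tcf7 +/+ and 3 labelled Tcf7 F/F : Vav1-Cre. The authors' deposited table gives raw counts per gene for 55471 genes, made on mm10 with the aligner STAR 2.7.3a and the counter HTSeq 0.11.2, after fastp 0.20.0 and with Picard 2.21.1 and SAMtools 1.9, per the submitters' processing notes; the annotation release and the strand setting are not given in the sources used here. The libraries were made by a modified RamDA-seq, which primes with oligo(dT) and with not-so-random primers, so unpolyadenylated RNA also counts, per the labels' protocols. The authors also deposited CPM, counts scaled to library size with edgeR, for 12366 genes. All CPM values (100%) gave back whole counts within 0.001 of a count, and the listed genes were those that filterByExpr keeps.

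The counts were tested with edgeR 4.0.16 (R 4.3.3): filterByExpr with a minimum count of 10, TMM factors, a quasi-likelihood fit on group with 3 residual degrees of freedom, and two-sided tests adjusted by Benjamini-Hochberg over the 12366 genes. Genes were called at an adjusted p under 0.05, and autosomal genes are reported, with positions of GENCODE M21 (GRCm38). The procedure was tested on simulated data. Fold changes against a group without counts are bounds from a floor of 3 counts over that group. Alternatives used DESeq2 1.42.0, limma 3.58.1, other normalisations, filters and covariates, a replicate block, and each library left out.

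The comparison and its 43 gene lists were chosen with earlier results of these data known. Named genes were a fixed set of T cell and lineage genes, the 10 called genes per direction with the largest change (average log2 CPM of 3 or more, groups not overlapping), the 10 with the smallest p, and up to 8 called members per list and direction. Members that did not pass, and receptor segments, were named after their values were seen. A few list members are counted but not reported by name here. Promoters were read from RefSeq (GRCm38.p6) and matched by symbol for 8791 genes. Figures used Python 3.11.15, pandas 2.3.3 and matplotlib 3.10.9.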

Additional observations from a re-analysis of the deposited data

How the results depend on the processing

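The count of 2779 called genes (1452 higher, 1327 lower) kept within 1.5 times under RLE (2771), upper-quartile (2791), a filter of 5 CPM in 2 libraries (2794), limma-voom (2723), limma on log2(CPM + 1) (2646), DESeq2 (1900) and without mitochondrial, ribosomal RNA, histone and sex-chromosome genes (2838); under DESeq2 850 were lower. Without a filter on low counts, which tested more genes, 1564 were called (871 higher, 693 lower). With calls held to changes of 1 or more on the log2 scale, 1363 were called (800 and 563). With a term for Y-linked reads, 1086 were called (671 and 415). With libraries that have Y-linked reads alone (2 +/+ and 1 Cre-labelled, 1 residual degree of freedom), edgeR called 0 genes in all, 0 higher and 0 lower, and 1452 at an unadjusted p under 0.05; the lone Cre-labelled library is assumed to vary like the others. Leaving out 1 library gave 1652 to 4466 calls (928 to 2242 higher, 724 to 2224 lower), the fewest without Cre-labelled replicate 3 and the most without +/+ replicate 1. Fits without a +/+ replicate hold 1 control library, assumed to vary like the Cre-labelled ones. Counts of calls, and calls kept or lost, in those fits do not rest on replicated controls. The cause of these shifts was not tested. No called autosomal gene changed sign under any of these settings in which it was tested.

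Of 300 called named genes, 181 kept the call with the term for Y-linked reads. Without Cre-labelled replicates 1, 2 and 3 the call was lost by 45, 47 and 58 of them. Named genes that fell under the filter of such a fit were not tested in it and are not among these losses. Among named genes that were not called, Bcl11a ran from -0.38 (past the threshold) without +/+ replicate 2 to 0.26 without +/+ replicate 1 on the log2 scale and was 0.01 in libraries with Y-linked reads, and Itga2b ran from -0.12 without +/+ replicate 2 to 0.28 without Cre-labelled replicate 2. Replicate numbers 1 and 2 occur in both groups. Deviations of same-numbered libraries from their group means correlated at r = -0.114 for number 1 and 0.0681 for number 2. The deviations of 2 +/+ libraries mirror each other, so these values cannot show whether libraries were paired. A fit with the replicate number as a block called 1931 genes, 844 of them lower. Number 3 occurs in the Cre-labelled group alone, so its block absorbs that library, which adds nothing to the group change. Below about 4 on the log2 CPM scale, where 18.9% of genes were called, depth limits which changes can be seen.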

Other observations

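Gene families were grouped by symbol after their values were seen, and are given as values beside the background of 23.1% called. Some members also belong to the lists above, such as Kif11 (G2 and mitosis) and Zfp683 (NK cells and ILC1), so these families are not separate from them. Of 9 tested Gimap genes, GTPases of lymphocytes, 0 were higher and 4 lower, with a median log2 fold change of -0.76. Of 26 kinesin genes (Kif), 3 were higher and 10 lower. Of 20 potassium channel genes (Kcn), 5 were higher and 8 lower (65.0%). Both stabilin genes, Stab1 and Stab2, scavenger receptors of endothelium and macrophages, were higher. Of 9 olfactory receptor genes (Olfr), 6 were higher and 1 lower, with a median of 2.48. Of 251 zinc finger genes named Zfp, 15 were higher and 22 lower, which is 14.7%. Of 148 long intergenic non-coding RNA genes, 29 were higher and 19 lower, which is 32.4%.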
